A study of Homo sapiens with 6 samples.

Results

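A set of 10 genes of canonical Wnt signaling was followed in AGS gastric cancer cells after transfection with siRNA against C1GALT1. They are targets or feedback regulators of the pathway, except CTNNB1, which encodes its effector. They were AXIN2, NKD1, RNF43, ZNRF3, LGR5, ASCL2, TCF7, LEF1, MYC and CTNNB1, and all were chosen by name and found on the arrays through the RefSeq accession of each probe. They were covered by 14 of 58201 probes and by 32 of 60901 gene spots, on an array that named 22439 genes. Probe IDs are those of the array.

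In canonical Wnt signaling, a secreted Wnt protein binds a Frizzled and LRP receptor pair on the cell surface and stops the breakdown of β-catenin, the product of CTNNB1. β-catenin then enters the nucleus and activates genes together with the DNA-binding factors of the TCF/LEF family. Several of the genes it activates feed back on the pathway, and in the stomach and intestine others mark epithelial stem cells. AGS cells are a human gastric adenocarcinoma line known to carry an activating mutation of CTNNB1.

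Gene expression was measured in AGS cells grown in serum, 48 h after transfection with a nontargeting siRNA (si-Control, 3 samples) or with si-C1GALT1-3, a single siRNA sequence against C1GALT1 (3 samples). C1GALT1 encodes the enzyme that makes the core 1 structure of mucin-type O-glycans. Total RNA of every sample was labeled with a single dye and put on an Agilent array of its own. The labels do not say whether the samples of a group were separate cultures, so the p-values measure only the spread between these samples. The probes of the epithelial markers EPCAM, KRT8, KRT18, KRT19 and CLDN4 stood well above background on all arrays. Of 9 markers of other cells with a probe, 5 (PTPRC, CD3E, VWF, COL1A1 and ACTA2) were well above background on every array with a value, and 2 (COL1A2 and ALB) on none. Of these 9, the smooth muscle actin gene ACTA2 was called by the rule given below. It rose 3.13-fold in si-C1GALT1-3 cells (adjusted p = 0.0823 from limma), from 9.32, 9.96 and 9.85 to 11.29, 11.43 and 11.36 in normalized log2 signal. VWF read 10.17 and 9.64 on the si-Control arrays with a value and 8.77, 8.62 and 9.25 in si-C1GALT1-3 cells, without overlap, and was not called. The mean log2 signal of the 7 markers with values on all arrays ran from 7.07 to 7.44 in si-Control and from 7.08 to 7.39 in si-C1GALT1-3 cells. This mean leaves out VWF and COL1A1 and mixes unlike levels. Over all arrays PTPRC read 13.56 to 14.34, COL1A2 3.29 to 4.38 and ALB 3.34 to 5.16. The part of other cells in the results was not tested.

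The share of gene spots well above background ran from 66.2% to 72.7% over the arrays, and none of them was saturated. Precision is limited by how many arrays there are. Replicates with the same number shared 1 of 3 slides, where si-Control always lay in the first position and si-C1GALT1-3 in the next, so position and treatment cannot be told apart. On si-Control replicate 2 a region of 9712 gene spots had low signals, and these spots were set to missing on that array. Its share well above background was 66.2% with the region and 71.9% outside it. Outside the region the lowest share was 67.3%, on si-Control replicate 3. The region touched 4 of the 10 genes, namely ASCL2, LEF1, MYC and CTNNB1. All values below are normalized log2 signals unless stated. Levels are compared between probes only within a gene, to pick its brightest probe and as a ratio within an array. A probe was called where limma's moderated test gave p under 0.01 and the difference was 2-fold or more.

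C1GALT1 itself (probe A_23_P252145) read 12.22, 13.03 and 12.62 on the si-Control arrays and 11.76, 11.98 and 11.13 on the si-C1GALT1-3 arrays. The groups did not overlap, with si-C1GALT1-3 the lower on each slide. The group means were 12.62 ± 0.40 (SD, n = 3) and 11.62 ± 0.44 (SD, n = 3), with a 95% interval of -1.77 to -0.23 for the log2 difference, and limma's adjusted p, by the Benjamini-Hochberg method over the whole array, was 0.265. The unadjusted p of 0.0193 did not pass the threshold, so C1GALT1 was not called. Within slides 1, 2 and 3 the difference was -0.47, -1.05 and -1.49. It was called where dim probes were left out of the fit.

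By the brightest probe of each gene, none of the 10 genes was called in either direction. Over the whole array 1.65% of 58195 probes tested were called higher and 0.991% lower in si-C1GALT1-3 cells. Among probes well above background throughout at least 1 group the shares were 1.96% and 1.19%. At an unadjusted p under 0.05 in limma, 2 of the 10 genes were higher, NKD1 and LGR5, and none was lower. The shares of all probes at that level were 7.36% higher and 6.43% lower. With the replicate as a block, which pairs the arrays of a slide, 5 genes were higher at that level (AXIN2, NKD1, LGR5, MYC and CTNNB1) and TCF7 was lower. The shares of all probes were 9.68% and 7.63%, and again none of the genes was called. For NKD1 this fit rests on slides 1 and 2. The methods' t-test also called none. The smallest adjusted p among these 10 probes was 0.265 (LGR5). Of the other 4 probes, 1 was called, a probe of AXIN2.

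The arrays of the groups did not overlap for 4 genes that lay higher in si-C1GALT1-3 cells (NKD1, LGR5, MYC and CTNNB1) and for 2 that lay lower (ASCL2 and TCF7). Among all probes tested, 11.0% did not overlap in the higher direction and 10.4% in the lower direction. Among probes well above background throughout at least 1 group, as these 6 genes were, the shares were 13.8% and 12.4%. For NKD1 and ASCL2 only 2 si-Control arrays gave a value. Non-overlap is easier to reach with fewer values, so these shares are not a like measure for those genes. Log2 fold changes of the 9 genes that were well above background ran from -0.55 to 1.27 with a median of 0.37. The median over all probes tested was -0.0048, and over the 38659 probes well above background throughout at least 1 group it was -0.0041. Of the 9 genes, 7 had a log2 fold change above 0, as did 49.6% of those 38659 probes.

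**Figure D1:**
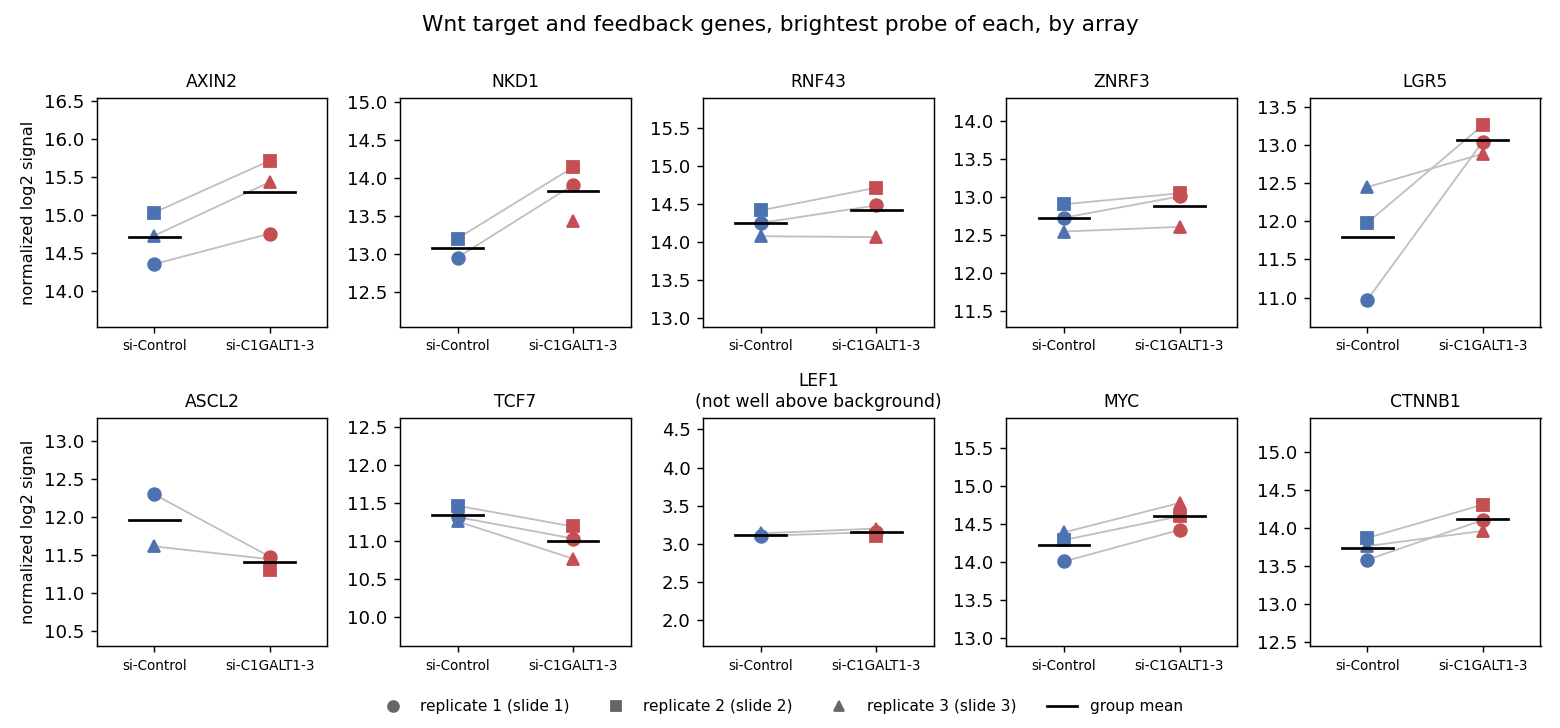
Normalized log2 signal of the brightest probe of each gene (vertical axis, spanning 3 log2 units in each panel) on the si-Control and si-C1GALT1-3 arrays. Symbols mark replicates, which share a slide and are joined by a grey line, and black bars are group means. NKD1, LGR5, MYC and CTNNB1 lay higher without overlap, ASCL2 and TCF7 lower, and no array had the LEF1 probe well above background.

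The feedback inhibitors came first in the comparison. AXIN2 encodes a scaffold of the complex that degrades β-catenin and is itself switched on by Wnt signaling. Its brightest probe, A_23_P148015, read 14.35, 15.03 and 14.73 in si-Control and 14.75, 15.71 and 15.43 in si-C1GALT1-3 cells. The groups overlapped, since si-C1GALT1-3 replicate 1 lay below si-Control replicate 2. It differed by a log2 fold change of 0.59 (95% interval -0.17 to 1.36, adjusted p = 0.468 from limma). Within slides 1, 2 and 3 it was 0.40, 0.68 and 0.70, higher in si-C1GALT1-3 on each.

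The second AXIN2 probe, A_24_P298027, read 13.85, 14.67 and 14.22 in si-Control cells and 15.29, 15.59 and 15.28 in si-C1GALT1-3 cells. All 3 si-C1GALT1-3 arrays lay above all 3 si-Control arrays. The group means were 14.25 ± 0.41 (SD, n = 3) and 15.39 ± 0.18 (SD, n = 3). This probe rose 2.20-fold, with a log2 fold change of 1.14 and a 95% interval of 0.54 to 1.74. It passed the threshold on the unadjusted p, while its adjusted p from limma was 0.157. The differences within slides 1, 2 and 3 were 1.44, 0.92 and 1.06.

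The call of this AXIN2 probe was lost with the low region of si-Control replicate 2 kept (log2 fold change 1.06). It was lost as well in the methods' t-test and without any 1 of the arrays other than si-Control replicate 2. Those 5 log2 fold changes were 0.94 without si-Control replicate 1, 1.13 without si-Control replicate 3, and 1.19, 1.04 and 1.19 without si-C1GALT1-3 replicates 1, 2 and 3. Without si-Control replicate 2 it was 1.35 and the probe was called.

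NKD1 encodes a protein that binds Dishevelled and dampens Wnt signaling. Its probe, A_23_P429449, read 12.96 and 13.21 on si-Control replicates 1 and 2, and the spot on si-Control replicate 3 was marked as an outlier by the scanner's software and was left out. The si-C1GALT1-3 arrays read 13.91, 14.14 and 13.43, all above both si-Control arrays. This gave a log2 fold change of 0.75 (95% interval 0.05 to 1.45, adjusted p = 0.339 from limma), a 1.68-fold difference that was not called. Slides 1 and 2 gave differences of 0.95 and 0.93. With outlier spots kept the log2 fold change was 0.92, and a block for the replicate gave 0.94. The block fit rests on slides 1 and 2, and leaving out si-C1GALT1-3 replicate 3 without a block also gave 0.94.

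RNF43 and ZNRF3 are membrane ubiquitin ligases that remove Frizzled receptors from the cell surface. The RNF43 probe, A_33_P3213029, read 14.25, 14.41 and 14.07 in si-Control and 14.48, 14.71 and 14.06 in si-C1GALT1-3 cells. These ranges overlapped. The log2 fold change was 0.17, and its 95% interval of -0.35 to 0.70 left room for a change in either direction (adjusted p = 0.783 from limma).

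The brighter ZNRF3 probe, A_24_P162373, read 12.73, 12.90 and 12.54 in si-Control and 13.01, 13.05 and 12.61 in si-C1GALT1-3 cells. These ranges overlapped too, at a log2 fold change of 0.16 (95% interval -0.30 to 0.62, adjusted p = 0.760 from limma). The other ZNRF3 probe, A_23_P427502, read 10.97, 11.54 and 10.99 in si-Control and 11.87, 11.87 and 11.74 in si-C1GALT1-3 cells. For this probe the groups did not overlap. Its log2 fold change of 0.66 (95% interval 0.17 to 1.14, adjusted p = 0.253 from limma) was a 1.58-fold difference and was not called. It measured 0.89, 0.33 and 0.75 within slides 1, 2 and 3.

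**Figure D2:**
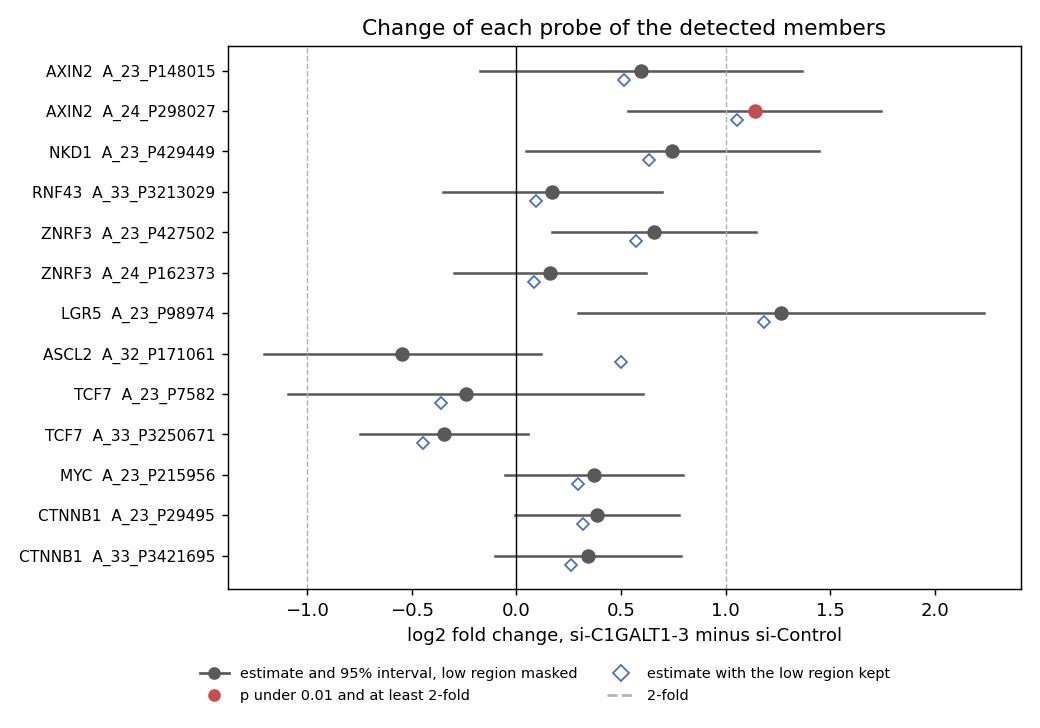
Log2 fold change (si-C1GALT1-3 minus si-Control, horizontal axis) of the 13 probes of the 9 genes that were well above background. Circles with lines are estimates with 95% intervals after masking the low region of si-Control replicate 2, open diamonds are estimates with the region kept, dashed lines mark 2-fold, and red marks the 1 called probe, AXIN2 A_24_P298027 at 1.14. The ASCL2 estimate moved from -0.55 to 0.50 when the region was kept.

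The genes AXIN2, ZNRF3, TCF7 and CTNNB1 had a pair of probes, and the ratio within an array compares the probes free of the array's overall brightness. For AXIN2 the dimmer probe minus the brighter one was -0.50, -0.36 and -0.51 on the si-Control arrays and 0.54, -0.12 and -0.15 on the si-C1GALT1-3 arrays. For ZNRF3 the values were -1.75, -1.36 and -1.55 against -1.14, -1.17 and -0.87. In both genes the dimmer probe gained on the brighter one on every si-C1GALT1-3 array, by 0.55 for AXIN2 and 0.50 for ZNRF3 on average on the log2 scale.

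The exact permutation test over samples, two-sided, gave p = 0.1 for each of these 2 genes, the smallest value that 3 against 3 arrays allow (adjusted p = 0.2 over the 4 pairs). This design cannot reach a lower p. For TCF7 the ratio changed by 0.10 (exact permutation p = 0.7) and for CTNNB1 by -0.046 (exact permutation p = 0.8), and the groups overlapped in both. Which transcripts each probe measures was not tested.

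**Figure D3:**
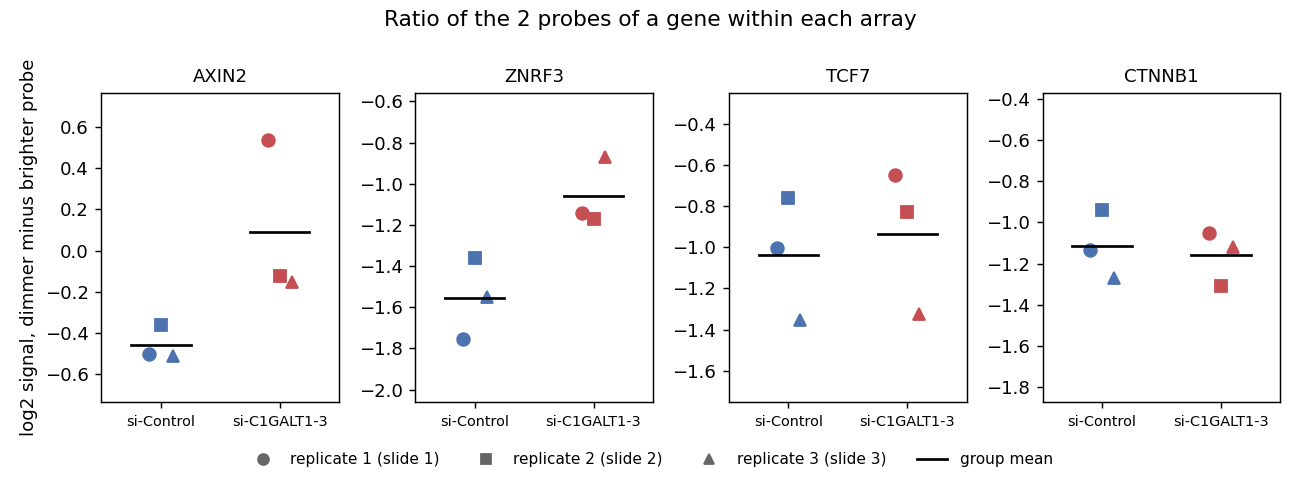
Log2 signal of the dimmer minus the brighter probe of the same gene on each array (vertical axis, spanning 1.5 log2 units in each panel), with group means as bars and symbols for replicates. The groups did not overlap for AXIN2 (means -0.46 and 0.09) and ZNRF3 (means -1.56 and -1.06), and they overlapped for TCF7 and CTNNB1.

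LGR5 marks Wnt-dependent stem cells of the intestine and stomach, and ASCL2 marks those of the intestine. LGR5 is a receptor for R-spondins, secreted proteins that strengthen Wnt signaling. Its probe, A_23_P98974, read 10.97, 11.98 and 12.45 in si-Control and 13.05, 13.26 and 12.89 in si-C1GALT1-3 cells. All si-C1GALT1-3 arrays lay above all si-Control arrays, and the si-Control arrays were the more scattered, with means of 11.80 ± 0.76 (SD, n = 3) and 13.07 ± 0.19 (SD, n = 3).

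The LGR5 difference was the largest among the brightest probes of the 10 genes, 2.40-fold with a log2 fold change of 1.27 (95% interval 0.29 to 2.24). Its unadjusted p of 0.0193 missed the threshold and its adjusted p from limma was 0.265, so it was not called. Within slides 1, 2 and 3 it was 2.08, 1.28 and 0.44. LGR5 was called without normalization between arrays (log2 fold change 1.34), where dim probes were left out (1.27), with normexp background correction (1.21) and without si-Control replicate 3 (1.59). Leaving out si-Control replicate 1 gave the smallest log2 fold change, 0.85.

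ASCL2 encodes a transcription factor that maintains the stem cell state. Its probe, A_32_P171061, has its only spot inside the low region of si-Control replicate 2. There its log2 signal before normalization was 8.27, against 12.58 and 11.26 on the other si-Control arrays, and it was set to missing. The remaining values were 12.30 and 11.62 in si-Control cells and 11.48, 11.31 and 11.45 in si-C1GALT1-3 cells. Both si-Control arrays lay above the 3 si-C1GALT1-3 arrays.

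For ASCL2 the log2 fold change was -0.55 (95% interval -1.21 to 0.12, adjusted p = 0.437 from limma), so it lay opposite to LGR5 without being called. Its direction rested on the masked spot. With the region kept the log2 fold change was 0.50. Without si-Control replicate 1 it was -0.20 and without si-Control replicate 3 it was -0.89, each time against a single si-Control value.

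TCF7 and LEF1 encode the DNA-binding partners of β-catenin. The brighter TCF7 probe, A_33_P3250671, read 11.31, 11.46 and 11.26 in si-Control and 11.03, 11.19 and 10.77 in si-C1GALT1-3 cells. All 3 si-C1GALT1-3 values were below the lowest si-Control value. Its level in si-C1GALT1-3 cells was 0.786 of that in si-Control, with a log2 fold change of -0.35 (95% interval -0.75 to 0.05, adjusted p = 0.421 from limma), and it was not called.

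The other TCF7 probe, A_23_P7582, read 10.31, 10.70 and 9.90 in si-Control and 10.38, 10.36 and 9.44 in si-C1GALT1-3 cells, with overlap. Its log2 fold change was -0.24 (adjusted p = 0.818 from limma), and it was 0.066 without si-C1GALT1-3 replicate 3. The LEF1 probe, A_24_P20630, was well above background on none of the 5 arrays with a value, so no fold change is given.

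TCF/LEF proteins bind the letters NNCAAAG in which each N is A or T, and SOX proteins can bind them too. They were searched on both strands in RefSeq promoter windows of GRCh38.p14. Each window has 250 bases before a start of the gene and 50 after it, and a gene can have several starts. Windows were at hand for 4 of the 10 genes, 1 each for CTNNB1 and LEF1 and 2 each for RNF43 and TCF7. Of these 6 windows 1 held a match, against 13.8% of all 35116 windows. Of 107 windows of the other pathway genes listed below, 8 held a match (7.48%). The window with a match is the TCF7 window at chr5:134123368-134123667 on the plus strand, shown because it held the only match. The LEF1 window held none. The match is in capitals and begins 50 bases before the start that this window belongs to. The other TCF7 window, at chr5:134115363-134115662, held no match.
TCF7 promoter: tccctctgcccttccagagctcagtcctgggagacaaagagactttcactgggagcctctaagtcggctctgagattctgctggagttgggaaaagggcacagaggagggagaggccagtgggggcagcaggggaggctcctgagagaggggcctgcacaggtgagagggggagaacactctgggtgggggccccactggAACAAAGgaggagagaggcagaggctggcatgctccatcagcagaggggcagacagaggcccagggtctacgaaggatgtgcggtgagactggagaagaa
The match is a description of the sequence and not a measured binding site.

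MYC and CTNNB1 were each printed at 10 places on the array, so their values could be set beside the spread between spots. MYC encodes a transcription factor that drives growth and is a direct target of β-catenin in the intestine. Its probe, A_23_P215956, read 14.01, 14.29 and 14.39 in si-Control and 14.42, 14.60 and 14.78 in si-C1GALT1-3 cells. The groups did not overlap, but the highest si-Control array and the lowest si-C1GALT1-3 array lay close together. Their gap was below the SD between single spots on most arrays, which ran from 0.028 to 0.100. Each array value is a mean over 9 or 10 spots, so its own error is smaller than that SD.

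The difference between MYC arrays of the same slide was nearly constant, 0.41, 0.31 and 0.39 on slides 1, 2 and 3. Over all arrays the log2 fold change was 0.37 (95% interval -0.05 to 0.80, adjusted p = 0.418 from limma), a 1.29-fold difference that was not called. A block for the replicate did not change this.

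CTNNB1 encodes β-catenin. Its brighter probe, A_23_P29495, read 13.59, 13.87 and 13.76 in si-Control and 14.11, 14.31 and 13.96 in si-C1GALT1-3 cells. The si-C1GALT1-3 arrays lay above the si-Control arrays without overlap. The SD between spots was 0.066 to 0.164 per array, and the spots of this probe inside the low region of si-Control replicate 2 read 10.22 and 4.76 before normalization and were left out. The log2 fold change was 0.39 (95% interval -0.0046 to 0.78, adjusted p = 0.367 from limma), or 1.31-fold.

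The other CTNNB1 probe, A_33_P3421695, read 12.45, 12.93 and 12.49 in si-Control and 13.05, 13.00 and 12.85 in si-C1GALT1-3 cells. Its groups overlapped, with a log2 fold change of 0.34 (95% interval -0.10 to 0.78, adjusted p = 0.474 from limma). The CTNNB1 probes thus gave log2 fold changes that differed by less than their standard errors of 0.16 and 0.18. Neither was called.

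**Figure D4:**
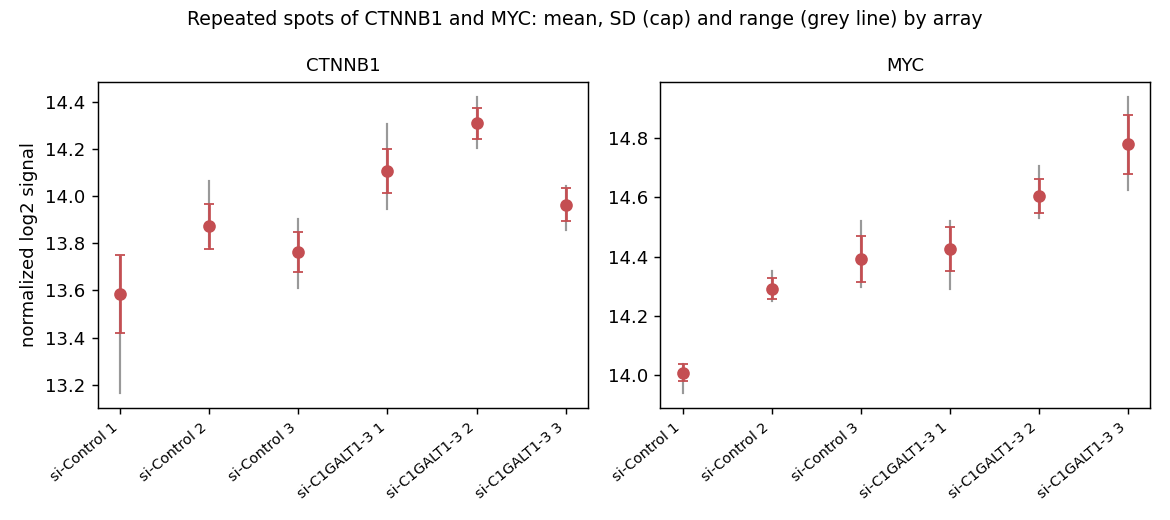
Normalized log2 signal of CTNNB1 and MYC on each array (vertical axis; the panels have different ranges and do not start at 0), as the mean over 8 to 10 repeated spots with the SD between spots (caps) and their range (grey lines). Means ran from 13.59 to 14.31 for CTNNB1 and from 14.01 to 14.78 for MYC, and the SD between arrays of a group exceeded the SD between spots on all of them except si-Control replicate 1 for CTNNB1.

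The other genes of the pathway were counted in lists by role. Of 116 listed genes 3 (CSNK1A1, CSNK1E and TDGF1) had no matched probe and 93 were well above background. By their brightest probe 4 were called higher and 1 lower in si-C1GALT1-3 cells, beside 1.65% and 0.991% of all probes. Of probes well above background throughout at least 1 group, 1.96% were called higher and 1.19% lower. The median log2 fold change over those with a probe was 0.10. By list the called genes were 1 of 21 in the ligand list, which also holds PORCN and WLS, and 1 of 21 receptors and R-spondins. Next came 0 of 14 genes of the destruction complex and Dishevelled and 1 of 16 nuclear partners and repressors. Last were 0 of 20 secreted and membrane inhibitors and 2 of 21 other target genes. The median log2 fold changes of these lists were 0.10, 0.18, 0.04, 0.26, 0.08 and 0.05.

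LGR6, a relative of LGR5 that also binds R-spondins, read 9.49, 9.08 and 9.05 in si-Control and 10.85, 10.23 and 11.48 in si-C1GALT1-3 cells. The groups were well separated. It rose 3.14-fold, a log2 fold change of 1.65 (standard error, SE, 0.34, adjusted p = 0.152 from limma). The call was lost without si-Control replicate 2 (1.59), si-Control replicate 3 (1.57) or si-C1GALT1-3 replicate 1 (1.65), and in the methods' t-test.

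NLK, a kinase that phosphorylates TCF/LEF proteins, read 11.01, 11.83 and 11.64 in si-Control and 12.81, 13.02 and 12.76 in si-C1GALT1-3 cells. It rose 2.58-fold, a log2 fold change of 1.37 (SE 0.24, adjusted p = 0.126 from limma). ID2, a helix-loop-helix inhibitor counted among Wnt targets, read 11.53, 12.37 and 11.95 in si-Control and 13.40, 13.15 and 13.64 in si-C1GALT1-3 cells. It rose 2.73-fold, a log2 fold change of 1.45 (SE 0.26, adjusted p = 0.128 from limma). Its other probe, A_32_P69368, gave 1.14 and was not called. NLK and ID2 were called under every alternative run.

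The ligand gene WNT6 read 9.64 and 9.49 on the si-Control arrays with a value and 10.60, 10.44 and 10.87 in si-C1GALT1-3 cells. It rose 2.09-fold, a log2 fold change of 1.07 (SE 0.20, adjusted p = 0.152 from limma), its spot on si-Control replicate 2 being masked. With the replicate as a block the log2 fold change was 1.17 and the call was lost. It was lost too with the region kept (2.73), without normalization, with normexp, and without si-Control replicate 1 (1.14) or 3 (0.99) or si-C1GALT1-3 replicate 1 (1.08) or 3 (0.95).

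CCND1, which encodes cyclin D1 and like MYC links Wnt signaling to cell division, went the other way. It read 12.91, 13.30 and 14.24 in si-Control and 11.31, 11.54 and 12.44 in si-C1GALT1-3 cells, without overlap. It fell to 0.303 of the si-Control level, a log2 fold change of -1.72 (SE 0.45, adjusted p = 0.213 from limma), and the differences within slides 1, 2 and 3 were -1.59, -1.77 and -1.80. The call was lost without si-Control replicate 2 or 3 or si-C1GALT1-3 replicate 1 or 2, which gave log2 fold changes between -1.81 and -1.34, and in the methods' t-test. It was lost with the region widened, with the series table and with the median over probes as well. MYC, with a log2 fold change of 0.37, and CCND1 thus lay on opposite sides of 0.

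**Figure D5:**
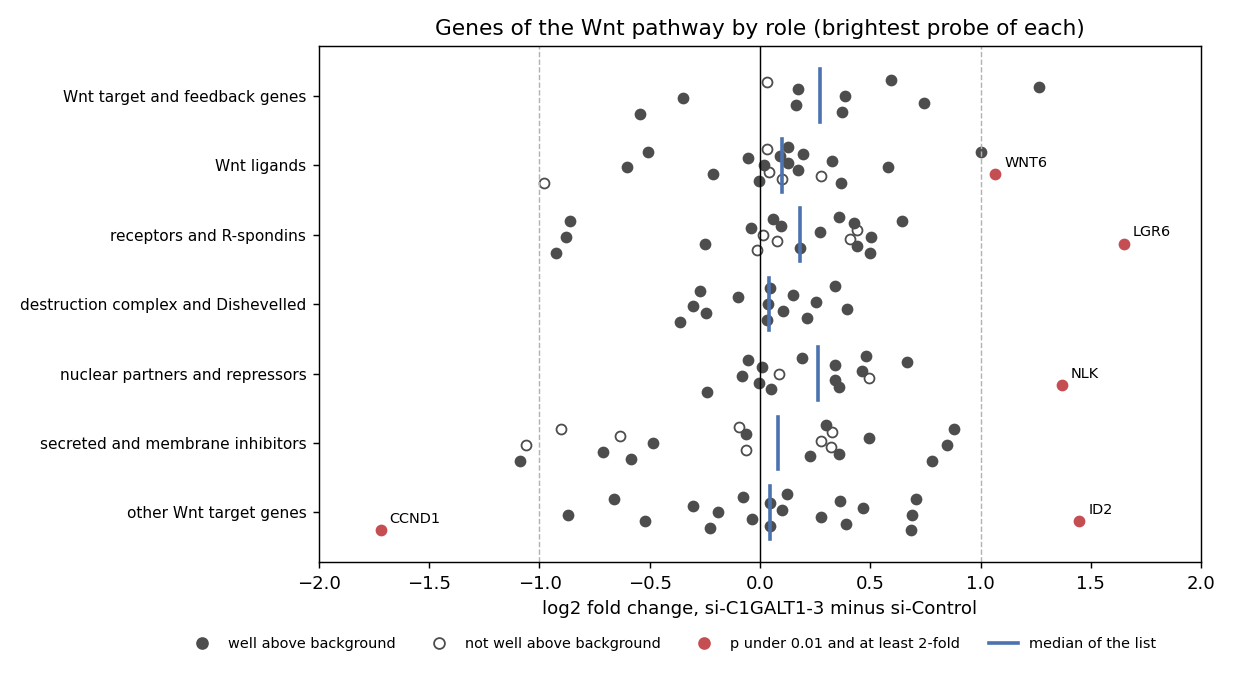
Log2 fold change (si-C1GALT1-3 minus si-Control, horizontal axis) of the brightest probe of each gene, in rows by role. Filled circles were well above background, open ones were not, red marks calls at p under 0.01 and 2-fold, blue bars are the medians of the lists, and dashed lines mark 2-fold. Called genes were WNT6, LGR6, NLK and ID2 (higher) and CCND1 (lower). None of the 10 genes in the top row, which include the effector gene CTNNB1, was called.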

How the data were processed

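The authors deposited the Agilent Feature Extraction output (version 10.5.1.1 per the labels) of 6 one-colour arrays, in which each spot has a fluorescence intensity corrected for background by that software and not normalized between arrays. A deposited series table gives the same spots' intensity after background subtraction. The members, the lists of pathway genes and the masked region were chosen with earlier results of these data known.

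From these files, log2 values of the processed intensity were taken. Control spots were left out, spots flagged as non-uniform or population outliers (100 to 424 per array) were set to missing, and so were spots in rows 113 to 288 and columns 59 to 115 of si-Control replicate 2. Arrays were quantile normalized, repeat spots were averaged per probe, and si-C1GALT1-3 was set against si-Control in limma 3.58.1 (lmFit and eBayes) in R 4.3.3, as in the study's methods. All 58195 probes with enough values were tested, with no filter on dim probes, and p-values were adjusted over all of them by Benjamini-Hochberg. Accessions gave symbols to 31104 probes through RefSeq genes of GRCh38.p14, and 27097 stayed unnamed. For a gene with several probes, that with the highest mean log2 signal counted as the brightest. Named genes are the 10 members with every probe, C1GALT1, the largest called rise and fall of each list, and CCND1. Markers and A_32_P69368 were named beside them, and an epithelial marker is not reported here.

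Same-numbered arrays shared a slide in the scanner files, and their deviations from the group means correlated at 0.200, 0.214 and 0.318, so the numbers were taken as pairs and the block was run as an alternative. The other alternatives were the 75th percentile or no normalization, the region kept or widened by 10 rows and 5 columns, dim probes left out, a trend and robust prior, the methods' t-test, outlier spots kept, normexp with offset 50 on the median spot signal (the mean signal is not used here), the series table floored at 10, the median over probes of a gene, and leaving out each array. Genomic coordinates of probes are not used here.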

Additional observations from a re-analysis of the deposited data

How the results depend on the processing

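With 3 arrays a group, the smallest adjusted p of a member probe was 0.157 in limma, and spots near background, such as LEF1, gave no fold change. The count of probes called, 1538 in all and 62.5% of them higher, was 896 in the methods' t-test and 915 with normexp. The share higher was 72.6% without normalization and 40.2% with the low region of si-Control replicate 2 kept. With the 75th percentile the median log2 fold change of all probes was -0.107, and the members' values in that setting include this shift. One member gene, LGR5, was called higher without normalization, with dim probes left out and with normexp (1 in each). Leaving out each array gave between 0 and 1 members called higher, between 2 and 4 pathway genes called higher (fewest when si-Control replicate 3 or si-C1GALT1-3 replicate 1 was dropped), and between 0 and 3 called lower. Pathway genes called lower numbered 3 with the region kept, and 0 with it widened, in the methods' t-test, with the series table and with the median over probes. ASCL2 turned from -0.55 to 0.50 with the region kept, and the TCF7 probe A_23_P7582 from -0.24 to 0.066 without si-C1GALT1-3 replicate 3, leaving out each array giving -0.44 to 0.066. A block for the replicate left 1604 probes called, and among the genes named the pairing changed only the call of WNT6 (log2 fold change 1.17). The causes of these shifts beyond the spots and arrays left out were not tested.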
